A study of Mus musculus with 15 samples.

Results

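Regulatory T cells (Tregs) of the mouse aorta were selected in single-cell RNA counts as T cells with Foxp3 RNA. A cell was kept at 200 to 7000 detected RNAs and at most 25% mitochondrial unique molecular identifiers (UMIs, 1 per captured RNA molecule). It was taken as a Treg when at least 2 of Cd3d, Cd3e, Cd3g and Trac had a UMI, Foxp3 had 1 or more, Cd8a, Cd8b1, Ms4a1, Cdh5 and Csf1r had none, and Lum and Pdgfra together had at most 1. The members were thus chosen by measured UMI counts of these genes. There were 279 Tregs, 0.218% of 128019 kept cells and 9.35% of the 2984 CD8-negative T cells that met the same conditions with or without Foxp3. These shares depend on depth, since a Treg whose Foxp3 RNA was not captured is not counted. Averaged over libraries, Tregs were 8.43% of CD8-negative T cells, and 3.56% with every cell thinned to 1500 UMIs. The genes of the selection, and Cd4 where it chose the comparison cells, are described and not tested.

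The 15 libraries came from whole aortas of wildtype C57BL/6N mice in 4 groups. Vehicle-treated mice gave 4 young (Y VEH) and 3 old (O VEH) libraries, and fisetin-treated mice gave 4 of each age (Y FIS and O FIS). No transgene or deletion was part of the design, and fisetin, a plant flavonol studied as a senolytic, was given in an intermittent course that ended before tissue collection. By the sample labels young mice were 3 and old mice 27 months of age. A higher age for the young mice stands in the methods, and a pool size that reaches lower than the one in the labels. Each library pooled 3 mice of 1 sex according to the labels (F or M in the library names), so the library and not the mouse or the cell is the replicate, and the spread between mice cannot be seen. The fat around the vessel was removed and viable cells were sorted with propidium iodide. Libraries held 49964001 to 74587567 UMIs and 6372 to 14805 kept cells. No barcode of a Treg occurred in more than 1 library.

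Tregs are CD4 T cells that hold other lymphocytes in check. Foxp3, a forkhead transcription factor on chromosome X, sets their identity together with partners of the Ikaros and Runx families. They keep Il2ra, the high-affinity chain of the interleukin-2 receptor, on their surface, consume interleukin-2, and carry Ctla4, which takes the co-stimulatory ligands away from antigen-presenting cells. Some Tregs recirculate through lymphoid organs with the chemokine receptor Ccr7, and others settle in tissues, where Il1rl1 (the interleukin-33 receptor), Klrg1, Areg and Ccr8 mark them.

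The label was first checked on genes that the selection did not use. Il2ra (GRCm39 chromosome 2, 11647618 to 11698004) had a UMI in 136 Tregs (48.7%), against 7.90% of 1228 conventional CD4 T cells, which met the same conditions with Foxp3 at 0 and a Cd4 UMI. Ctla4 (chromosome 1, 60926159 to 60954991) was detected in 92.5% of Tregs and 50.7% of conventional CD4 T cells, and Ikzf2, the Ikaros factor Helios, in 89.2% and 33.6%. With every cell thinned to 1500 UMIs these shares were 20.2% and 3.19% for Il2ra, 75.5% and 30.2% for Ctla4, and 77.6% and 21.5% for Ikzf2. In endothelial cells, which should lack the immune genes, 0.403% had an Il2ra UMI and 1.31% a Ctla4 UMI. The median Treg had 5411 UMIs, 2220 detected RNAs and 3.01% mitochondrial UMIs.

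Foxp3 itself (chromosome X, 7439883 to 7461484) gave 613 UMIs in the 279 Tregs. A single Foxp3 UMI selected 130 of them, and 149 had 2 or more. Cells just inside the threshold, with 1 Foxp3 UMI, had Il2ra in 36.9%, Ctla4 in 87.7% and Ikzf2 in 86.2%, and cells with 2 or more had them in 59.1%, 96.6% and 91.9%. The cells just outside, conventional CD4 T cells with no Foxp3 UMI, are the ones described above. They can hold Tregs whose Foxp3 RNA was not captured, and how many was not tested. Foxp3 UMIs in cells that met no T cell condition were rare: 67 of 115801 such cells (0.0579%) had one, as did 15 of 49853 endothelial cells (0.0301%). Of 481 kept barcodes with a Foxp3 UMI, 87 were left out for fewer than 2 T cell receptor genes, 37 for a CD8 gene, 70 for a B cell, endothelial or macrophage gene and 8 for fibroblast genes. Cd4 had a UMI in 133 Tregs (47.7%).

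The Treg share of T cells varied among libraries of the same group as much as between groups. Of CD8-negative T cells, Tregs were 4.61% in Y VEH F1, 7.33% in F2, 10.2% in M1 and 6.48% in M2. In Y FIS they were 8.20% in F1, 7.55% in F2, 14.3% in M1 and 12.4% in M2. The 3 O VEH libraries had 5.43% in F1, 6.76% in F2 and 13.5% in M1. The O FIS libraries had 13.3% in F1 and 5.75%, 5.61% and 5.15% in F2, M1 and M2. The ranges of all 4 groups overlapped, and 1 library in each of O VEH and O FIS lay far above the others of its group.

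The young groups averaged 7.15 ± 2.31% with vehicle (SD, n = 4) and 10.6 ± 3.25% with fisetin (n = 4). The old groups averaged 8.56 ± 4.32% with vehicle (n = 3) and 7.45 ± 3.89% with fisetin (n = 4). Y FIS was 1.48 times Y VEH (two-sided exact permutation p = 0.143, adjusted p = 0.8), the smallest p of 14 comparisons of shares. O VEH was 1.198 times Y VEH (exact permutation p = 0.571, adjusted p = 0.8), and O FIS was 0.869 times O VEH (exact permutation p = 0.514, adjusted p = 0.8). Without O VEH M1 these ratios were 0.853 and 1.22. Of all kept cells, young Tregs made up 0.251 ± 0.0961% with vehicle and 0.213 ± 0.107% with fisetin, old Tregs 0.205 ± 0.172% and 0.177 ± 0.230%, and none of the 7 contrasts passed there either (adjusted p of at least 0.8 in exact permutation tests). With 4 against 4 libraries such a test cannot give a p below 0.0286, and with 3 against 4 not below 0.0571, so adjustment over 14 comparisons leaves little room for a call between groups of this size. The share of CD8-negative T cells among all kept cells, the denominator, was 3.48 ± 0.818% in Y VEH and 1.92 ± 0.405% in Y FIS (exact permutation p = 0.0286, the smallest of 7 contrasts, unadjusted). It averaged 2.14 ± 0.773% in O VEH and 1.83 ± 1.41% in O FIS, each with an exact permutation p of 0.114 against Y VEH, unadjusted.

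**Figure D1:**
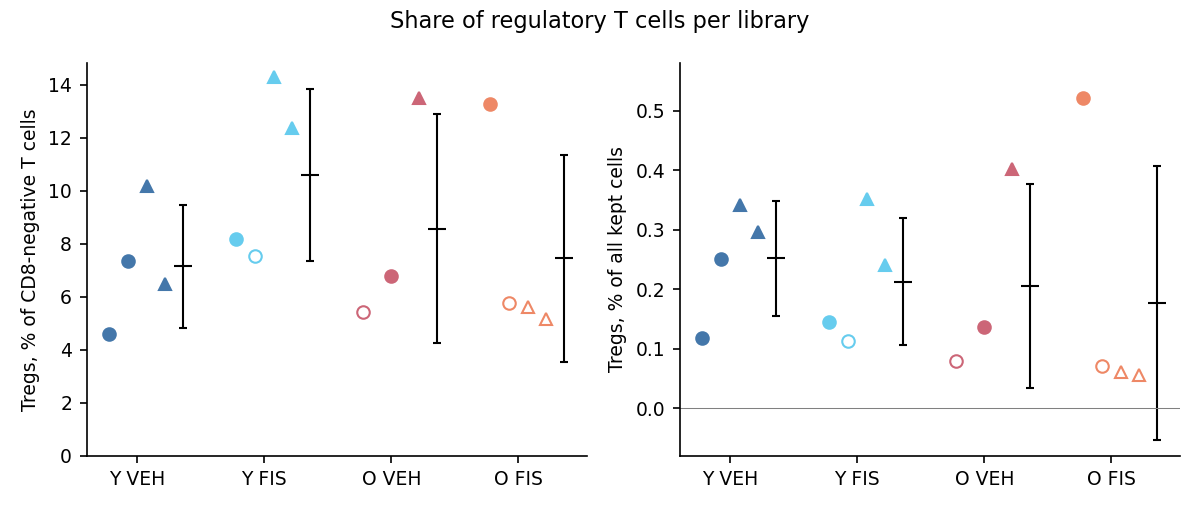
Tregs as a percentage of CD8-negative T cells (left) and of all kept cells (right), 1 point per library by group. Circles are female and triangles male libraries, open symbols have fewer than 10 Tregs, and black bars are mean ± SD; the groups overlap, and O FIS F1 at 13.3% and 0.522% lies apart from the other O FIS libraries.

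What separates an aortic Treg from a conventional CD4 T cell of the same library was asked over the 10 libraries with at least 10 cells of both kinds. Counts were summed per library and cell type and tested with edgeR's quasi-likelihood test with library as a block. Levels are CPM, which give a gene's UMIs as a share of all UMIs in the sum on the usual parts-per-1000000 scale. Of 4803 RNAs tested, 193 (4.02%) were higher in Tregs and 160 (3.33%) lower at an adjusted p under 0.05. An unadjusted p under 0.05 was found for 903 (edgeR). With cells thinned to 1500 UMIs the test covered fewer RNAs and called 71 higher and 67 lower. All 156 main calls that could still be tested kept their direction, and 95 of them were called again. With comparison cells taken with or without a Cd4 UMI, 351 of 353 main calls kept their direction. Of 47 calls of list members and of the largest changes, 24 held in every alternative in which they could be tested. A further 14 were lost only in settings other than leaving out a library, among them Ccr7, Cish, Dscam, Gbp7, Icos, Ier2, Il2rb, Il7r, Itgb1, Malat1, Nrp1, Nt5e and S1pr1. Requiring a Cd4 UMI of each Treg lost each of these 13 but Il7r, and thinning to 1500 UMIs lost Icos, Ier2, Il7r, Nrp1 and S1pr1. The other 9 were lost when single libraries were left out: Ccl5, Entpd1, Fos, Foxo1, Gata3, Hdac9, Ifi27l2a, Igtp and Mcl1. Each of these 9 was also lost with at least 2 Foxp3 UMIs and in 1 or more of the other settings (edgeR adjusted p of up to 0.978, for Fos).

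The receptor genes of Tregs were among the largest increases. Il2ra was 209 ± 86.4 CPM in Tregs and 24.8 ± 20.003 CPM in conventional CD4 T cells (SD, n = 10), a log2 fold change of 3.15 ± 0.38 (SE, edgeR adjusted p = 0.000327). It lay between 89.3 and 328 CPM in Tregs, with a median of 207, and between 6.74 and 57.8 CPM in conventional CD4 T cells, with a median of 16.7, so the ranges did not overlap. The tumor necrosis factor receptors Tnfrsf9 (4-1BB), Tnfrsf4 (OX40) and Tnfrsf18 (GITR), which carry co-stimulatory signals, rose by 2.32 ± 0.20, 2.14 ± 0.18 and 1.63 ± 0.16 on the log2 scale and were higher in 10 of 10 libraries each. Ctla4 was 1012 ± 344 CPM against 374 ± 194 CPM, higher in 10 of 10 libraries (log2 fold change of 1.48 ± 0.13, edgeR adjusted p = 1.97e-08).

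Of the 19 genes of the Treg core list, 14 passed the filter on low counts and 13 of these were higher in Tregs, with Tigit as the exception at a log2 fold change of 0.38 ± 0.26 (edgeR adjusted p = 0.468). A gene that is nearly absent from one cell type passes this filter through the other, so the count describes the list and does not test it. The median log2 fold change of the 14 was 1.54, and that of all RNAs tested was 0.01. Nt5e (CD73) and Entpd1 (CD39), the ectoenzymes that turn extracellular ATP into adenosine, rose by 1.01 ± 0.17 and 0.86 ± 0.24, with Entpd1 higher in 9 of 10 libraries. Entpd1 did not pass when Y VEH F2, Y VEH M1, Y FIS F1 or O FIS F1 was left out (edgeR adjusted p of up to 0.0645). Izumo1r (the folate receptor FR4), Capg (an actin-capping protein), Nrp1 (a semaphorin receptor of thymus-derived Tregs) and Icos (a co-stimulatory receptor) rose by 1.197, 1.60, 1.04 and 0.62 on the log2 scale, each in 10 of 10 libraries. The calls of Nrp1 and Icos were lost when cells were thinned to 1500 UMIs, with a Cd4 UMI required and with at least 2 Foxp3 UMIs (edgeR adjusted p of up to 0.414 and 0.400).

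Ikaros factors moved in opposite directions. Ikzf2 was 1942 ± 528 CPM in Tregs and 327 ± 169 CPM in conventional CD4 T cells, and Ikzf4 (Eos) was 78.7 ± 38.9 and 10.95 ± 5.50 CPM. Their log2 fold changes were 2.62 ± 0.25 (edgeR adjusted p = 0.000112) and 2.71 ± 0.25 (edgeR adjusted p = 1.50e-08). Ikzf1 (Ikaros) fell, from 679 ± 79.4 CPM in conventional CD4 T cells to 334 ± 103 CPM in Tregs (log2 fold change of -1.08 ± 0.14, edgeR adjusted p = 6.06e-06). None of the 3 ranges overlapped between the cell types. Among the 16 genes listed as partners or regulators of Foxp3, all tested, Gata3 and Foxo1 also rose (0.67 and 0.50), Satb1, a chromatin organizer, fell (-1.75 ± 0.22), and 10 did not pass, Runx1 among them at 0.02 ± 0.11. Gata3 did not pass without Y FIS F1 or O FIS F1 (edgeR adjusted p of up to 0.0544), nor Foxo1 without Y VEH M1, Y FIS M2, O VEH M1 or O FIS F1 (up to 0.0795). With a Cd4 UMI required and with at least 2 Foxp3 UMIs both lost the call, Gata3 at an adjusted p of up to 0.621 and Foxo1, in 4 of 11 other settings, of up to 0.856 (edgeR).

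Genes of conventional and recirculating T cells were lower. Cd40lg, the ligand with which helper T cells activate B cells, was 23.1 ± 11.4 CPM in Tregs and 148 ± 41.4 CPM in conventional CD4 T cells (log2 fold change of -2.57 ± 0.20, edgeR adjusted p = 1.25e-09). It was highest in Tregs of O VEH F2 at 38.1 CPM and lowest in conventional CD4 T cells of Y FIS M1 at 91.8 CPM. Of the 8 tested genes of the conventional T cell list, 7 were lower, with a median of -2.49 over the 8. They included Dapl1 (-3.39), Pde3b, a phosphodiesterase (-3.19), Igfbp4 (-2.03) and Il7r, the interleukin-7 receptor (-0.67). Ccl5, a chemokine of effector T cells, was 132 ± 85.3 CPM in Tregs against 1261 ± 1545 CPM, a spread that put its adjusted p at 0.0445 (edgeR). When 1 library was left out it passed only without Y VEH F2, and not without any of the other 9 (edgeR adjusted p of up to 0.118).

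In the central and naive list all 11 genes passed the filter and 6 fell. Tcf7 and Lef1, the transcription factors of naive and memory T cells, fell by 1.37 ± 0.14 and 1.40 ± 0.16 on the log2 scale in 10 of 10 libraries, and Ccr7 fell by 1.18 ± 0.24. The homing list had 3 of 13 tested genes lower, Ccr7, S1pr1 (-0.78) and Itgb1 (-0.76), and none higher. S1pr1 lost its call in 5 of 11 other settings (edgeR adjusted p of up to 0.388), Ccr7 in 3 of 10 (up to 0.199) and Itgb1 in 2 of 11 (up to 0.786).

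The interleukin-2 pathway list had 4 of 12 tested genes higher and none lower. Beside Il2ra these were Il2rb, the shared beta chain (1.05 ± 0.22), Cish, a feedback inhibitor induced by STAT5 (1.00 ± 0.24), and Mcl1, a survival factor (0.36 ± 0.11, edgeR adjusted p = 0.0499). The call of Mcl1 was lost in 8 of 11 other settings, at an adjusted p of 0.0529 by DESeq2 and 0.0521 with RLE normalization in edgeR. It was also lost when Y VEH F1, M1 or M2, any Y FIS library or O FIS F1 was left out (edgeR adjusted p of up to 0.161). Il2rg was 268 CPM in Tregs and 236 CPM in conventional CD4 T cells, and Stat5a and Stat5b did not pass at 0.19 ± 0.27 and 0.42 ± 0.15. In the interferon list 4 of the 14 tested genes were higher and 10 did not pass, with Gbp7, Igtp and Ifi27l2a higher by 0.90, 0.65 and 0.39. Igtp did not pass without Y VEH M2, Y FIS M2, O VEH M1 or O FIS F1 (edgeR adjusted p of up to 0.1002), and Ifi27l2a did not pass when any one of Y VEH F2, Y VEH M2, Y FIS M1, Y FIS M2, O VEH F2 and O VEH M1 was left out (up to 0.0902).

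The tissue and effector list had 1 of 13 tested genes higher, Gata3, and its median was 0.29. Batf, a factor of effector Tregs, was 133 CPM against 85.1 CPM (log2 fold change of 0.57 ± 0.18, edgeR adjusted p = 0.0523). The defining tissue markers did not pass the filter and are given by detection: Klrg1 had a UMI in 13.6% of Tregs and 4.07% of conventional CD4 T cells, Il1rl1 in 13.3% and 3.01%, Areg in 15.4% and 5.54%, and Ccr8 in 16.1% and 3.75%. Thinned to 1500 UMIs, Klrg1 was at 9.03% and 1.80% and Il1rl1 at 7.94% and 1.23%. Secreted mediators of suppression ranged widely in detection. Tgfb1, transforming growth factor beta, had a UMI in 43.4% of Tregs, 41.4% of conventional CD4 T cells and 41.5% of endothelial cells, and Lgals1, galectin-1, in 59.9%, 61.1% and 28.3%. Neither passed between the T cell types (log2 fold changes of 0.25 ± 0.16 and 0.29 ± 0.49, edgeR adjusted p = 0.465 and 0.838). Fgl2, a fibrinogen-like protein, was detected in 55 Tregs (19.7%) and 9.45% of conventional CD4 T cells, with 12.3% in endothelial cells. Ebi3, a subunit of interleukin-35, had a UMI in 11.1% of Tregs and 2.20% of conventional CD4 T cells. Il10 had a UMI in 15 Tregs (5.38%) and 2.85% of conventional CD4 T cells, and Gzmb, granzyme B, in 3.94% and 3.502%. Of the senescence list 0 of 8 tested genes passed by edgeR, with 1 at an unadjusted p under 0.05. Cdkn1a (p21) had a UMI in 24 Tregs (8.60%) and Cdkn2a (p16) in 6 (2.15%), against 48.4% and 0.604% of endothelial cells.

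Other RNAs with large differences lay outside these lists. Myo1e, a class I myosin, was 162 ± 64.0 CPM in Tregs and 37.9 ± 13.6 CPM in conventional CD4 T cells, and Wls, the carrier that exports Wnt proteins, was 124 ± 30.1 and 35.5 ± 16.2 CPM. Both were higher in 10 of 10 libraries with no overlap (log2 fold changes of 2.05 ± 0.19 and 1.77 ± 0.19). Coro2a, a coronin, rose by 1.81 ± 0.22, and Dscam and Hdac9 rose by 2.48 ± 0.47 and 2.34 ± 0.54 in 9 of 10 libraries. In the remaining library Hdac9 had no UMI in Tregs, and its call was lost when any one of the Y VEH libraries, Y FIS M2 or O FIS F1 was left out (edgeR adjusted p of up to 0.0642). Among the decreases, Mctp2 fell by 3.69 ± 0.40 and had 8 UMIs in all Tregs of the 10 libraries. Themis, an adaptor of T cell receptor signaling, was 138 ± 50.3 CPM in Tregs and 648 ± 205 CPM in conventional CD4 T cells (log2 fold change of -2.22 ± 0.23, edgeR adjusted p = 3.29e-05). Gm12840 and Gramd3 fell by 1.88 ± 0.26 and 1.63 ± 0.18. In all, 7 RNAs were higher and 4 lower with ranges that did not overlap, and each of the 11 passed the test. The marker lists of endothelial cells, fibroblasts, B cells and macrophages had 0 called genes of 13 tested by edgeR, with none at an unadjusted p under 0.05. The B cell markers varied widely. All 8 summed to 425 to 2979 CPM in Tregs and 291 to 51557 CPM in conventional CD4 T cells, with a median of 30079 CPM in the 5 female and 550.4 CPM in the 5 male libraries of the latter. Igkc, an antibody light chain gene, was 282 ± 378 CPM in Tregs and 10092 ± 16575 CPM in conventional CD4 T cells (log2 fold change of -2.52 ± 1.37, edgeR adjusted p = 0.372), with medians of 155 and 238 CPM. Of its 64545 UMIs in the 1228 conventional CD4 T cells, 96.3% came from 4 cells of 4 libraries. With the B cell markers and immunoglobulin genes taken out of the counts, chosen after seeing the data, 189 RNAs were higher and 178 lower.

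**Figure D2:**
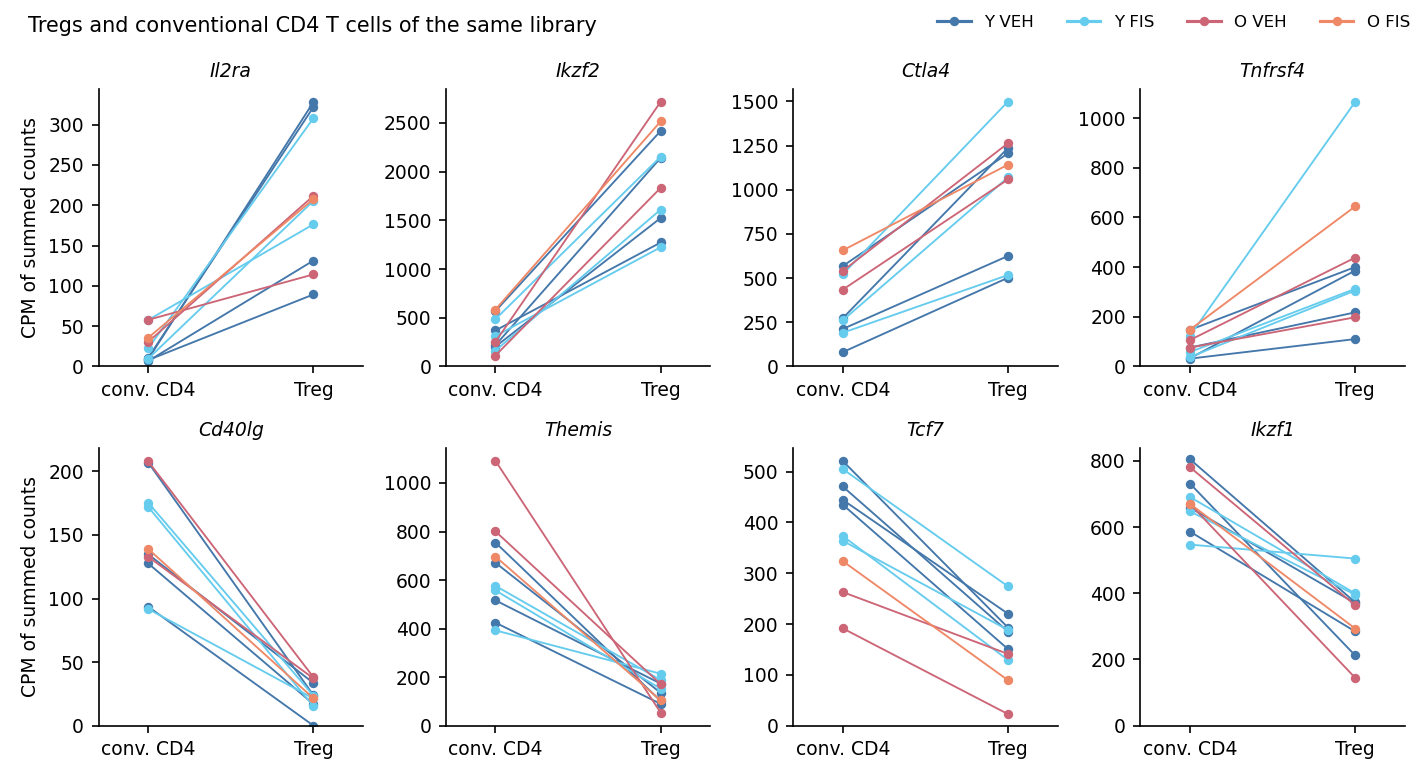
CPM of 8 RNAs in conventional CD4 T cells (left of each panel) and Tregs (right), 1 line per library for the 10 libraries with at least 10 cells of both, coloured by group. Il2ra and Ikzf2 lie higher in Tregs of every library, and Cd40lg, Themis and Ikzf1 lower, without overlap.

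**Figure D3:**
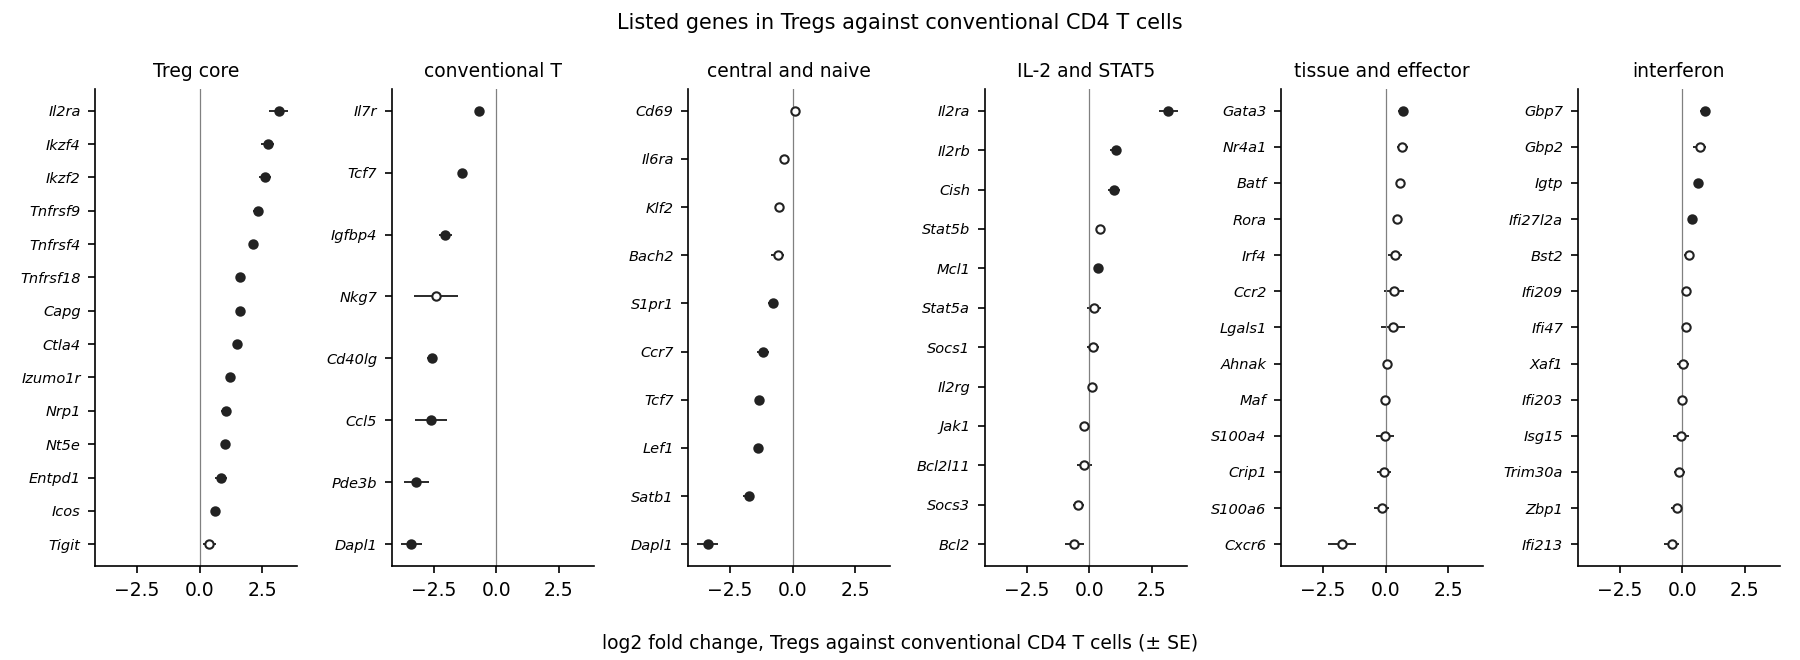
Log2 fold change in Tregs against conventional CD4 T cells (x axis, points with SE bars) for tested genes of 6 lists; a few members are not drawn. Filled points passed an adjusted p of 0.05 in edgeR's test; 13 of 14 core genes lie to the right with filled points, and 7 of 8 conventional T cell genes to the left.

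Tregs with markers of tissue cells were then counted. A UMI of Il1rl1, Klrg1, Areg or Ccr8 was found in 107 Tregs (38.4%, median depth of 5411 UMIs), which are called marker-positive here. In conventional CD4 T cells the share was 13.8% at a median of 6597 UMIs, and in endothelial cells 0.453% at 4268 UMIs. Thinned to 1500 UMIs, 20.9% of Tregs and 5.16% of conventional CD4 T cells had one of the 4. These counts describe the cells and were not tested, since the markers were picked with earlier results known.

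Of young Tregs, 25% of 76 were marker-positive with vehicle and 28.6% of 91 with fisetin, and of old Tregs 49.1% of 53 and 61.0% of 59. After thinning to 1500 UMIs the shares were 11.8%, 15.6%, 25% and 37.3%, in the same order of groups. Conventional CD4 T cells at their own depth had 12.9% and 7.84% in the young groups and 21.1% and 16.6% in the old, likewise vehicle first. Thinned to 1500 UMIs, they had 4.96% and 4.42% in the young groups and 5.63% and 6.19% in the old. Median UMIs per Treg, averaged over libraries, were 5154 and 5962 in young vehicle and fisetin libraries and 6175 and 5319 in old ones.

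Single libraries spread widely around these values. In Y VEH marker-positive Tregs were 30%, 9.09%, 44.0% and 15.8% in F1, F2, M1 and M2, and in Y FIS 90.0%, 50%, 9.62% and 38.1%. O VEH had 80.0%, 71.4% and 35.3% in F1, F2 and M1, and O FIS 55.8%, 60.0%, 83.3% and 80.0% in F1, F2, M1 and M2. The young libraries thus ran from the lowest to the highest value of the series, while no old library lay below 35.3%. The pooled shares rest on single libraries. Y FIS M1 gave 52 of the 91 Y FIS Tregs, and without it 53.8% of the other 39 were marker-positive, above the 49.1% of O VEH. Without Y VEH M1 the Y VEH share was 15.7%, and without O VEH M1 that of O VEH was 73.7%. Thinned, Y FIS was at 30.8% without M1 and O VEH at 52.6% without M1 and 15.8% without F2, so the order of young and old groups changes with the libraries included. O VEH F1 and 3 O FIS libraries held only 5 or 6 Tregs each, and their percentages move in steps of single cells.

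**Figure D4:**
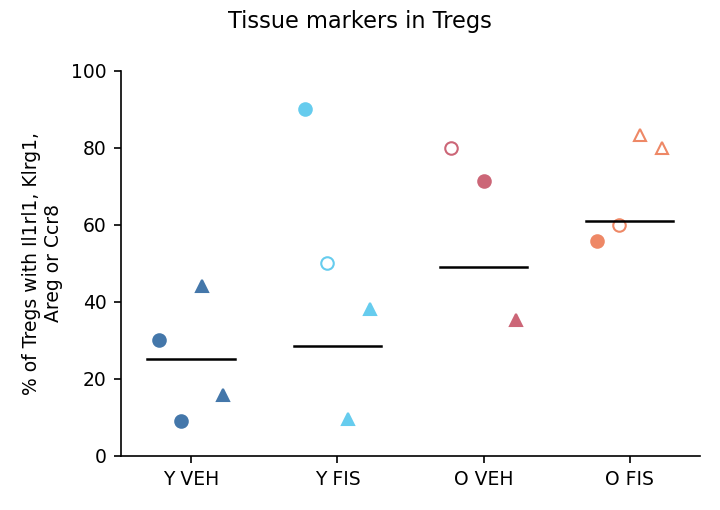
Percentage of Tregs with a UMI of Il1rl1, Klrg1, Areg or Ccr8 (y axis) by group, 1 point per library (circles female, triangles male, open symbols under 10 Tregs); black lines are the pooled percentage of each group. Pooled shares are 25% and 28.6% in the young groups and 49.1% and 61.0% in the old, with 1 young library at 90.0%.

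Whether age or fisetin changed the Treg transcriptome was tested on counts summed per library, for the 10 libraries with at least 10 Tregs, with group and sex as terms. O VEH entered with 2 libraries (F2 and M1) and O FIS with F1 alone, so that contrasts of O FIS with single groups were left to a fit with at least 5 Tregs per library, which holds all 15 and was chosen after seeing the data. Old against young averaged the age difference over vehicle and fisetin, in 3 old and 7 young libraries. Its O FIS part, like that of fisetin against vehicle, is F1 alone, whose spread is taken from the other groups. O FIS F1 is also the library whose Treg share lay apart from the other O FIS libraries. Whether its Treg transcripts stand for that group was not tested.

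Of 4735 RNAs, 8 (0.169%) differed between old and young Tregs, 6 higher and 2 lower in old. Without O VEH M1, which held 34 Tregs, 0 passed, without Y FIS M1 4, and without Y VEH M1 or F2 14 and 15; with no sex term 0 passed. DESeq2 called 7 RNAs, with Ifi27l2a and Cdk8 among them, but not Fhip1a, Il1r2, Jchain, Myo3b, Nsg2 or Thsd7a (DESeq2 adjusted p of at least 0.129). With a replicate block Fhip1a was the only one of the 8 to pass. The calls therefore rest on few libraries. Ifi27l2a (chromosome 12, 103399975 to 103409950), an interferon-induced gene of the mitochondria, was higher without overlap. In Y VEH it was 579, 1150, 764 and 525 CPM in F1, F2, M1 and M2, and in Y FIS 870, 2108, 843 and 1370 CPM. In O VEH it was 2035, 1743 and 2414 CPM in F1, F2 and M1, and in O FIS 2424, 3503, 2284 and 4408 CPM. Only Y FIS F2, with 8 Tregs and outside this fit, reached into the range of the old libraries. The means were 2194 ± 390 CPM in old (n = 3) and 872 ± 301 CPM in young Tregs (n = 7), a log2 fold change of 1.296 ± 0.26 (edgeR adjusted p = 0.0212). With all 15 libraries it was 1.25 ± 0.22 (edgeR adjusted p = 0.00534), and Ifi27l2a was the 1 RNA of 3010 RNAs (0.0332%) that differed between O FIS and Y VEH there (1.93 ± 0.31, edgeR adjusted p = 0.00201). Conventional CD4 T cells of the same libraries had a log2 fold change of 1.22 ± 0.19 with age (edgeR adjusted p = 0.0121), and the difference of the age effect between both cell types was 0.29 ± 0.23 for Ifi27l2a (edgeR adjusted p = 0.997). In Tregs of the 10 libraries its adjusted p (edgeR) was 0.0904, 0.108, 0.05001 and 0.576 without Y VEH F1, Y FIS F1, Y FIS M1 and O VEH M1. The age call of Ifi27l2a was also lost in 4 of 9 other settings, with no sex term, with a replicate block, with at least 20 Tregs and with a Cd4 UMI required (edgeR adjusted p of up to 0.809).

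Nsg2 (chromosome 11, 31950387 to 32009211), an endosomal protein gene, was lower in old Tregs without overlap. It was 38.6, 67.0, 47.8 and 59.3 CPM in the Y VEH libraries and 106, 68.0, 141 and 114 CPM in those of Y FIS. In O VEH it was 0, 0 and 22.3 CPM, and in O FIS 7.16 CPM in F1 and 0 in the other 3. O VEH F1 and O FIS F2, M1 and M2 held 5 or 6 Tregs each, with 24955 to 40714 UMIs per library, so 0 there says little. With this limit, Nsg2 was higher in all 8 young libraries than in all 7 old ones. Its log2 fold change was -2.90 ± 0.58 (edgeR adjusted p = 0.0212) over 10 libraries and -3.14 ± 0.59 (edgeR adjusted p = 0.00903) over 15, with 98 UMIs in 60 Tregs behind it. Over 10 libraries it was -5.03 without O VEH M1, which leaves O VEH with no Nsg2 UMI, and between -2.95 and -2.61 without any other library that could be left out. Its adjusted p (edgeR) was 0.0776 without O VEH M1, 0.125 without Y VEH F2 and 0.124 without Y FIS M1. It also did not pass by DESeq2 (adjusted p = 0.161), with no sex term (0.0680), with a replicate block (0.190) or with a Cd4 UMI required (0.349). In conventional CD4 T cells it fell by 1.46 ± 0.23 on the log2 scale (edgeR adjusted p = 0.0121).

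The other RNAs that passed, named after their values were seen, were Il1r2, Fhip1a, Jchain, Myo3b, Thsd7a and Cdk8. Il1r2, the decoy receptor that binds interleukin-1 without signaling, had a median of 9.86 CPM in the 8 young libraries (0 to 71.7) and 123 CPM in the 7 old ones (0 to 229). Its log2 fold change was 3.20 ± 0.55 (edgeR adjusted p = 0.0134) over 10 libraries, from 38 Tregs with a UMI. Its call was lost without O VEH M1 (edgeR adjusted p = 0.909) and in 5 of 9 other settings, by DESeq2 (adjusted p = 0.396), with no sex term, with a replicate block, with a Cd4 UMI required and in the fit of all 15 libraries (0.0655). In conventional CD4 T cells it was 1.17 ± 1.15 (edgeR adjusted p = 0.816). Myo3b, a class III myosin, rose by 1.82 ± 0.35 in Tregs and by 3.09 ± 0.23 in conventional CD4 T cells. Jchain, the joining chain of antibodies, had 80 of its 113 UMIs in a single cell of O VEH M1. Without O VEH M1 none of the 8 passed, and the log2 fold change of Jchain went from 5.73 to 0.30 and that of Thsd7a from 4.69 to 0.75. Without Y VEH F2 they were 8.46 and 7.39.

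In the fit of all 15 libraries 11 of 3010 RNAs (0.365%) passed for age, and Ifi27l2a, Myo3b, Thsd7a, Nsg2 and Cdk8 were among them. The others were Il18r1, the interleukin-18 receptor of tissue Tregs (1.67 ± 0.34), Neb (2.36 ± 0.52), Ifngr1, a chain of the interferon-gamma receptor (1.21 ± 0.27), Tbc1d4 (-1.83 ± 0.39), Cmss1 (-1.44 ± 0.20) and Camk1d (-1.06 ± 0.23). Il18r1 was 176 ± 79.3 CPM in the 7 old and 47.5 ± 21.8 CPM in the 8 young libraries. Leaving out 1 library was not tried on this fit. Of its old libraries, O VEH F1 and O FIS F2, M1 and M2 held 5 or 6 Tregs each. In conventional CD4 T cells of the 10 libraries Il18r1 differed by 0.47 ± 0.59 and Neb by 1.76 ± 0.64 with age. Ifngr1 differed by 0.12 ± 0.42 and Tbc1d4 by 0.05 ± 0.52 there, and edgeR called none of these. Cmss1 and Camk1d were at -1.31 ± 0.22 and -0.87 ± 0.19.

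O VEH against Y VEH gave 5 RNAs (0.106%), of which Cdk8, Cmss1 and Camk1d were lower in both O VEH libraries than in any Y VEH library. Cdk8 was 114 ± 43.2 CPM in O VEH (n = 2) and 565 ± 144 CPM in Y VEH (n = 4), a log2 fold change of -2.32 ± 0.36 (edgeR adjusted p = 0.00203), and in the fit of 15 libraries it did not pass (edgeR adjusted p = 0.122). Camk1d did not pass without Y VEH F1, Y VEH M2 or O FIS F1 (up to 0.139), with no sex term, with a replicate block or in the fit of 15 libraries (up to 0.331), nor Cmss1 without Y VEH F1 (0.0557), with no sex term or with a replicate block (up to 0.137). The same RNAs fell in conventional CD4 T cells, by 2.19, 2.22 and 1.15 on the log2 scale, and they were detected in most endothelial cells (81.2%, 98.2% and 92.7%). They belong to a list of transcripts kept apart as a property of a library, and the part of library quality in these differences was not tested. Without Y VEH M1 17 RNAs passed, without Y FIS F1 10, without Y VEH F1 3 and without O FIS F1 2. The 2 higher RNAs rested on few cells: Iglc1, an antibody light chain gene, had 1498 of 1508 UMIs in 1 cell of O VEH M1, and AA467197 had 23 of 52 in 1 cell of O VEH F2.

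By lists, 1 gene of the interferon list and 1 of the library list (Cdk8) passed for age. Of all 4735 RNAs tested, 256 had an unadjusted p under 0.05 for age (edgeR). Of the interferon list 1 of 15 tested genes passed, Ifi27l2a, and all 15 had a log2 fold change above 0, with a median of 0.69 against -0.03 over all RNAs tested. In conventional CD4 T cells 21 of 22 lay above 0, with a median of 0.58. The central and naive list had 10 of 11 below 0 and a median of -0.88, with 0 called by edgeR and 3 at an unadjusted p under 0.05. The tissue and effector list had 13 of 20 above 0 and a median of 0.49, with 0 called and 2 at an unadjusted p under 0.05, among them Rora at 0.65 ± 0.30. In the Treg core list 0 of 15 passed, with a median of 0.27 and 4 at an unadjusted p under 0.05. Ctla4 was 1155 CPM in old and 951 CPM in young Tregs, and Il2ra 178 and 223 CPM. Of the senescence list 0 of 8 passed, with none at an unadjusted p under 0.05 and a median of -0.07.

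Levels of markers of other cells differed among these libraries. The summed level of the 8 fibroblast markers in Treg counts was 388 to 1233 CPM in the 7 young libraries and 226 to 419 CPM in the 3 old ones, and that of the 8 B cell markers 425 to 1312 and 837 to 2979 CPM. Both pairs of ranges overlapped, and no gene of either list passed for age. All 8 endothelial and all 8 fibroblast markers had UMIs in the Tregs of these libraries, and 1 of the 8 B cell markers had none. The part of RNA from other cells in the age differences was not tested.

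**Figure D5:**
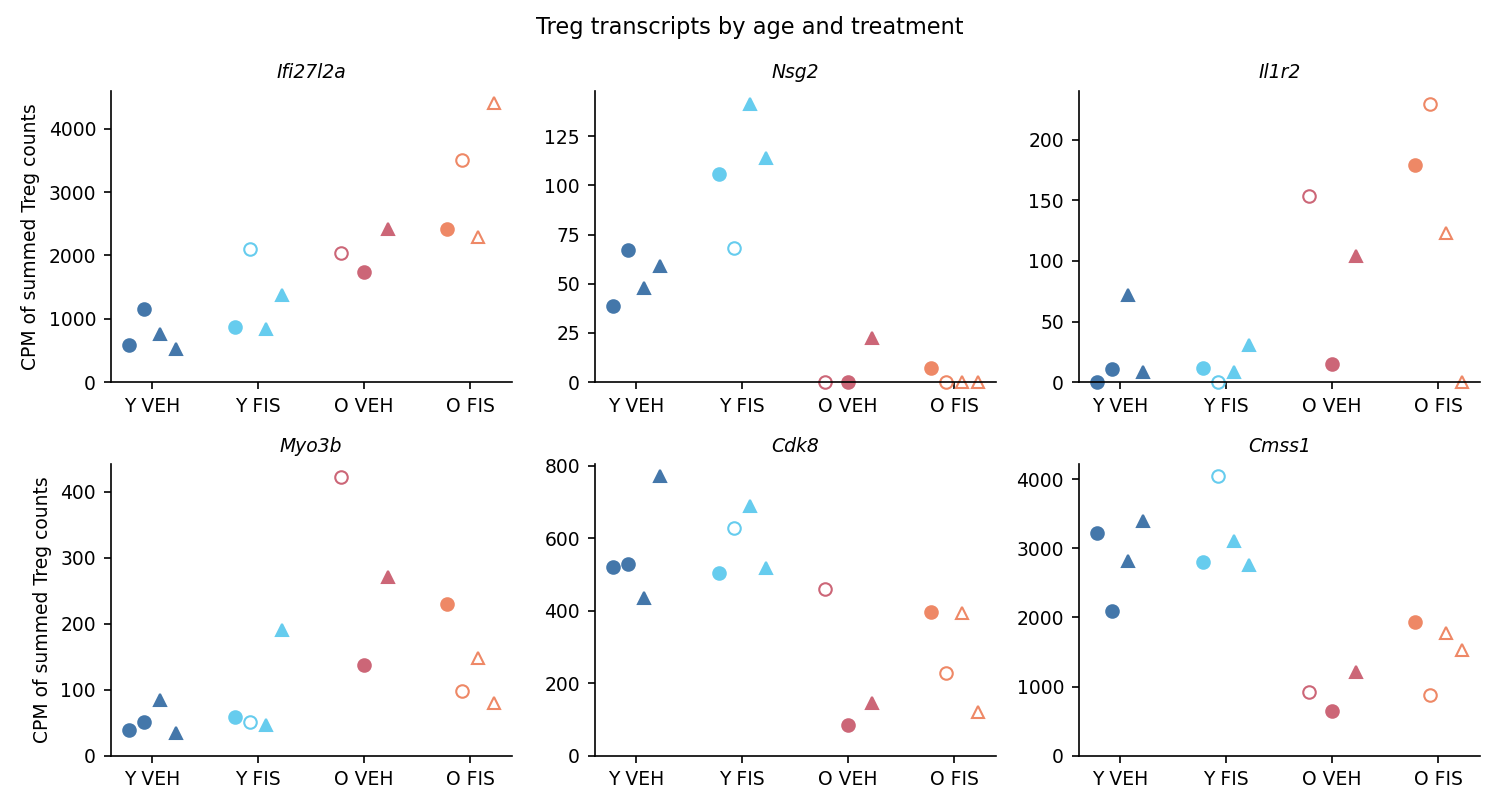
CPM of 6 RNAs in the summed counts of Tregs, 1 point per library (circles female, triangles male, open symbols under 10 Tregs). Old libraries with open symbols hold 5 or 6 Tregs, where 0 CPM of Nsg2 says little. Ifi27l2a lies at 1743 CPM or more in every old library and Nsg2 at 22.3 CPM or less. Cdk8 and Cmss1, RNAs also detected in most endothelial cells, are lower in the old libraries with some overlap for Cdk8.

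Fisetin left no RNA past the threshold in Tregs in edgeR's test over 10 libraries. For Y FIS against Y VEH none of 4735 passed (0 called); 205 had an unadjusted p under 0.05, and DESeq2 called 2. Fisetin against vehicle over the same 10 libraries called 0, with 245 at an unadjusted p under 0.05 and 0 called by DESeq2. In the fit of 15 libraries O FIS against O VEH called 0 of 3010, with 85 at an unadjusted p under 0.05, and the interaction of age and fisetin called 0, with 69. DESeq2 was not run on that fit.

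The RNAs with the smallest p between Y FIS and Y VEH were Cxcr6, Sit1, Cntn1, Cd52 and Tm4sf1. Sit1, an inhibitor of T cell receptor signaling, was 11.8 ± 3.33 CPM in Y FIS (n = 3) and 78.8 ± 28.9 CPM in Y VEH (n = 4), and Cd52, a surface glycoprotein of lymphocytes, 2262 ± 507 and 1290 ± 337 CPM. Neither overlapped between the groups, and the edgeR adjusted p was 0.861 for both. Cntn1 came from 1 cell of Y FIS F1, which held all of its 29 UMIs. For fisetin against vehicle they were Ddx39a, Dut, Tuba1b, Hsp90aa1 and Zc3h12d, with an edgeR adjusted p of 0.604 each. Dut, which keeps uracil out of DNA, was 61.2 ± 18.0 CPM with fisetin (n = 4) and 177 ± 123 CPM with vehicle (n = 6), where 1 cell of Y VEH F2 held 46 of its 222 UMIs.

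By lists, the 10 tested genes of the cycling list all had a fold change below 0 for fisetin against vehicle, with a median of -1.38 on the log2 scale against 0.01 over all RNAs, and 0 were called with 1 at an unadjusted p under 0.05. The same list had a median of 1.47 for female against male Tregs, again with 0 called. Mki67, a marker of cycling cells, was detected in 23 Tregs (8.24%). Among the libraries of this fit it was in 1, 2, 4 and 1 Tregs of Y VEH and 1, 0 and 2 of Y FIS. In O VEH it was in 2 and 3 Tregs, and in O FIS F1 in 5. Genes of 1 list in the same few cycling cells are not separate observations. In the Treg core list 0 of 15 passed for fisetin against vehicle (median of 0.38, 4 at an unadjusted p under 0.05), and in the senescence list 0 of 8 (median of -0.25, 1 at an unadjusted p under 0.05).

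Between female and male libraries 26 RNAs (0.549%) differed, 13 in each direction, and 5 of them are the sex-linked Xist, Tsix, Uty, Ddx3y and Eif2s3y, which matched the labelled sex of every library. Xist was 644 ± 145 CPM in the 5 female libraries and 0 in the 5 male ones, and Uty 0 and 98.9 ± 38.3 CPM. Beyond these, Fgl2, a fibrinogen-like mediator of Treg suppression, was 111 ± 54.9 CPM in female and 21.6 ± 10.7 CPM in male Tregs (log2 fold change of 2.46 ± 0.45, edgeR adjusted p = 0.00565). Its adjusted p (edgeR) was 0.149 without O VEH F2 and 0.129 without O VEH M1. Emp3 and Tmem176b were also higher in female libraries without overlap (1.04 ± 0.25 and 3.68 ± 0.85), and Lrig1 was lower (-1.65 ± 0.35). Tmem176b had 56 UMIs in 17 Tregs, 15 of them in 1 cell of Y FIS F1, and its log2 fold change was 2.26 without that library (edgeR adjusted p = 0.654). Emp3, Tmem176b and Lrig1 each lost the call without Y FIS F1, Y FIS M1, Y FIS M2, O VEH F2 or O VEH M1, among others, and Emp3 also by DESeq2 and with doublets left out. Iglc1, AA467197 and Cntn1 also passed, of which Iglc1 and Cntn1 come mostly from single cells, as given above, and AA467197 had UMIs in 7 Tregs. With all 15 libraries 4 RNAs passed (0.133%), Xist, Tsix, Uty and Ddx3y, and Fgl2 did not (1.42 ± 0.49, edgeR adjusted p = 0.998). In the fit of 10 libraries, leaving out 1 library gave 5 RNAs (without O VEH M1 or O VEH F2) to 105 (without Y VEH M1).

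The age effect differed between Tregs and conventional CD4 T cells for 1 of 6674 RNAs (0.015%), Art2a, a gene of the ADP-ribosyltransferase family. In Tregs its median was 12.8 CPM in the 8 young and 49.1 CPM in the 7 old libraries. In conventional CD4 T cells of the 10 libraries it was 14.5 CPM (0 to 237) in young and 8.30 CPM (1.81 to 32.2) in old. The difference of the log2 age effects was 3.26 ± 0.53 (edgeR adjusted p = 0.00616), and it did not pass when any of Y VEH M1, O VEH M1 or O FIS F1 was left out (0 called each).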

How the data were processed

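Cells of 15 pools of aortas were profiled with the 10x 3' assay. Per the submitters' processing notes, Cell Ranger 8.0.1 and Seurat 5.2.0 were used with GRCm39. The deposited matrices hold whole-number UMI counts per gene and cell barcode, which the authors made from the reads without normalization. From these counts, cells were filtered and Tregs selected by the rule in the text. Members and gene lists were chosen with earlier results of these data known. Doublets were marked with Scrublet in scanpy 1.11.5 and kept: it marked 1.61% of cells and 2 Tregs, and it marked under 0.5% in Y FIS F2, O VEH F1 and O FIS M1, where it cannot be said to have worked. Leaving marked cells out was an alternative.

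Counts were summed per library and cell type and tested with edgeR 4.0.16 (limma 3.58.1, R 4.3.3): filterByExpr, TMM normalization and the quasi-likelihood test with Benjamini-Hochberg adjustment over all genes tested. DESeq2 1.42.0 was an alternative. Tregs were compared with conventional CD4 T cells with library as a block, and groups with group and sex as terms, in libraries with at least 10 Tregs. Shares were compared with two-sided exact permutation tests, adjusted over 14 comparisons. Samples were grouped by their labels. The edgeR fits of O VEH against Y VEH, old against young, both cell types and their age effects were tried on simulated counts. Of planted changes of 1 and 2 on the log2 scale, 13% and 57% were called for O VEH against Y VEH. These were 23% and 80% for old against young, 81% and 91% between cell types, and 18% and 67% for the difference of the age effect. Fisetin, sex and share comparisons were not simulated. Named genes were the 10 largest called changes in each direction between cell types with the same direction in every library that had a count in both, called genes with no overlap between groups, and, where none was called, the 5 smallest p. Other genes named are list members or are said to be chosen after their values were seen. Results for a few genes are not reported here. Gene coordinates come from the gencode vM39 annotation. Libraries held 49964001 to 74587567 UMIs, and p-values measure the spread between pooled libraries.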

Additional observations from a re-analysis of the deposited data

Results flagged for a closer look

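In 23 groups of 4 libraries or more tested for a value far from the others, 2 stood apart, where chance alone marks about 1 in 20. Tregs were 13.3% of CD8-negative T cells in O FIS F1, and the next O FIS library was at 5.75%. Of all kept cells they were 0.522% in the same library, and the next was at 0.0711%. Both values divide the same Tregs by different denominators and are not separate observations.

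The age effect on Art2a differed between Tregs and conventional CD4 T cells by 3.26 on the log2 scale (edgeR adjusted p = 0.00616). Its adjusted p (edgeR) was 0.127 without Y VEH M1, 0.159 without O VEH M1, 0.0935 without O FIS F1 and 0.545 with at least 5 cells per library. Art2a had 78 UMIs in 40 of 279 Tregs.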

How the results depend on the processing

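Counts of called RNAs depended on the settings more than their directions did. For O VEH against Y VEH (5 called) there were 19 with no filter on low counts, 1 with no sex term, 10 in a fit of those groups alone, 1 with at least 5 Tregs per library (chosen after seeing the data) and 2 to 17 leaving out 1 library. O VEH F2 and M1, the only O VEH libraries of that fit, could not be left out. For Y FIS against Y VEH (0 called) there were 8 with no filter, 2 by DESeq2, 39 with at least 20 Tregs and 0 to 3 leaving out 1 library. For old against young (8 called) there were 39 with no filter, 0 with no sex term, 48 with at least 20 Tregs, 5 with doublets left out, 14 with a Cd4 UMI required and no sex term (chosen after seeing the data) and 0 to 15 leaving out 1 library. For fisetin against vehicle (0 called) there were 7 with no filter, 32 with at least 20 Tregs and 21 with a Cd4 UMI required and no sex term, and 0 without any 1 library. For female against male (26 called) there were 89 with no filter, 11 with at least 20 Tregs, 4 with at least 5 and 5 to 105 leaving out 1 library. For Tregs against conventional CD4 T cells, the 193 higher and 160 lower RNAs became 71 and 67 when thinned, 52 and 36 with a Cd4 UMI required and 119 and 87 with at least 2 Foxp3 UMIs. With no filter 598 were lower, and leaving out 1 library gave 141 to 200 higher and 122 to 170 lower. The age difference between cell types (1 called) had 16 with no filter, 0 with at least 5 cells and 0 to 6 leaving out 1 library. The fits with at least 20 Tregs (6 libraries) and with a Cd4 UMI required (5 libraries) had 1 residual degree of freedom. O VEH and O FIS entered both with 1 library each, and Y VEH the latter, so that a lone library is assumed to vary like the others and their counts say little. The cause of these moves was not tested.

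With a replicate block on the label numbers, 2 RNAs passed for O VEH against Y VEH, 1 for Y FIS against Y VEH, 2 for old against young and 2 for fisetin against vehicle. Same-numbered libraries had correlations of -0.156 to 0.0993 over 9 pairs, as deviations from the mean of group and sex. These used Treg counts only, from as few as 5 Tregs in O VEH F1, where counting noise pulls correlations towards 0. They cannot decide whether libraries were paired, and the main fits took them as unpaired. With 2 libraries per group and sex the second deviates as the mirror of the first, and O VEH M1, alone in its sex, entered no pair. With no replicate block by library, 287 RNAs differed between the cell types and 0 in their age effect.

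No share passed under any alternative (smallest adjusted p = 0.2 in exact permutation tests). Measured as Foxp3 CPM in CD8-negative T cells, Y FIS lay at 26.9 to 51.7 and Y VEH at 15.6 to 26.4, without overlap. With 4 against 4 libraries, such a separation gives the lowest p that the exact permutation test allows, 0.0286. The ratio of Y FIS to Y VEH in shares of CD8-negative T cells ran from 1.31 to 1.73 leaving out 1 library. Ratios of shares of CD8-negative T cells turned to the other side of 1 as follows. O VEH against Y VEH was 0.853 without O VEH M1. O FIS against O VEH was 1.12 with a Cd4 UMI required of Tregs and of the denominator, and 1.22 without O VEH M1. O FIS against Y VEH was 0.854 when thinned, 0.913 with CD8 T cells in the denominator, 0.931 without Y VEH F1 and 0.770 without O FIS F1. Old against young was 1.12 with at least 2 Foxp3 UMIs and 1.23 with a Cd4 UMI required of Tregs and of the denominator. It was 1.02 as the Foxp3 share of UMIs and 1.03 by edgeR on cell counts, and fisetin against vehicle was 0.980 with at least 2 Foxp3 UMIs. Leaving out 1 library, the shares of CD8-negative T cells ran from 0.853 to 1.42 for O VEH against Y VEH, from 0.643 to 1.22 for O FIS against O VEH and from 0.770 to 1.21 for O FIS against Y VEH, and of kept cells from 0.426 to 1.07 for O VEH against Y VEH, from 0.302 to 1.65 for O FIS against O VEH and from 0.246 (without O FIS F1) to 0.865 for O FIS against Y VEH. Of kept cells, O VEH against Y VEH was 1.04 with at least 2 Foxp3 UMIs and 1.07 without O VEH F1, and O FIS against O VEH was 1.65 without O VEH M1 and 1.03, 1.05 and 1.06 without O FIS F2, M1 and M2. With at least 2 Foxp3 UMIs or a Cd4 UMI required, 6 and 5 libraries were left, in which sex could not be told apart from group, so the sex term was dropped and the contrasts were kept in which sex cancels; Y FIS against Y VEH called 0 with at least 2 Foxp3 UMIs. Old against young and fisetin against vehicle without O FIS F1 could not be formed. With 5 to 52 Tregs per library, Klrg1, Il1rl1, Areg and Ccr8 did not pass the filter on low counts between cell types and could be described by detection only.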
